A study of Mus musculus with 4 samples.

Results

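The genes described here encode the enzymes and transporters of glucose use: the glucose and lactate carriers, the steps of glycolysis, the enzymes that decide between lactate and mitochondrial oxidation, the pentose phosphate pathway, and the polyol and galactose pathways. They were chosen by name, as 35 symbols matched by Ensembl identifier to the 14924 genes of the normalized expression table, and all 35 were found. The data came from whole lenses of S100A4-/- mice, a knockout line for the calcium-binding protein S100A4, and of wild type (WT) littermates. Both groups were on a C57BL/6J background and aged 1 month, and no treatment is named for either. Each group had 2 libraries of stranded poly(A) RNA, and each library was made from 6 to 12 pooled lenses, so that the spread between libraries is a spread between pools and not between animals. The libraries held 81602367 and 74108017 reads on genes in S100A4-/- and 70253985 and 68038158 in WT. A value is the number of reads counted on a gene divided by a size factor of its library, and 1 read was worth between 0.856 and 1.09.

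The labels were first checked on the deleted gene. *S100a4* stood at 14.6 and 18.2 in S100A4-/- and at 14419.8 and 14385 in WT. Its neighbour *S100a5*, another S100 calcium-binding protein, stood at 2248 and 2462 in S100A4-/- and at 8.35 and 8.76 in WT. The deleted gene thus separated the genotypes as labelled. As for the tissue, the 16 lens fiber markers summed to between 34180000.0 and 36851000.0 in the 4 libraries, with *Cryaa*, the alpha A-crystallin gene, the most abundant of them. None of these 16 passed the test described below.

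The lens has no blood vessels, and its center holds fiber cells that have lost their mitochondria and other organelles. Most of its ATP comes from glycolysis with lactate as the end product, the pentose phosphate pathway supplies the NADPH that keeps glutathione reduced, and the polyol pathway, through aldose reductase and sorbitol dehydrogenase, is known for its part in sugar cataract. Most glycolytic steps can be run by several isozymes from separate genes, which differ in kinetics and in the tissues that use them.

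Most of these genes differed little between genotypes. Across all genes, the 14780 that reached a value of 10 in any library were tested with limma on log2(value + 1), with Benjamini-Hochberg adjustment over all of them. All 35 members were among them, and 34 had at least 10 reads in every library, the exception being *Slc2a3* with 7 reads in the first WT library. At an adjusted p of at most 0.05, 6 members were higher in S100A4-/- (*Slc2a3*, *Ldhb*, *Slc16a1*, *Eno2*, *Pfkp* and *Hk1*), 3 were lower (*Rpe*, *Aldoc* and *Tkt*) and 26 were not called. The share of members called was 25.7%, against 6.96% of all genes tested, and the higher calls took in 5.62% and the lower calls 1.33% of all genes. Calls depended on level, since the standard error was 0.49 for *Slc2a3*, the rarest member, and 0.05 for *Aldoc*, the most abundant. Abundant genes could thus be called at small changes, and the shares of members and of all genes were not matched for level. With a change of at least 2-fold required as well, 2 members remained, *Slc2a3* and *Ldhb*, both higher, and 3.72% of all genes, or 3.65% that were higher. The median log2 fold change was -0.02 over the members and -0.01 over all genes tested. For 30 of the 35 members, or 85.7%, the log2 fold change lay within 0.3 of 0, against 76.0% of all genes. Both S100A4-/- libraries lay above both WT libraries for 10 members and below them for 8, while over all genes tested 46.9% had groups that did not overlap, 23.7% with S100A4-/- above and 23.2% below.

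**Figure D1:**
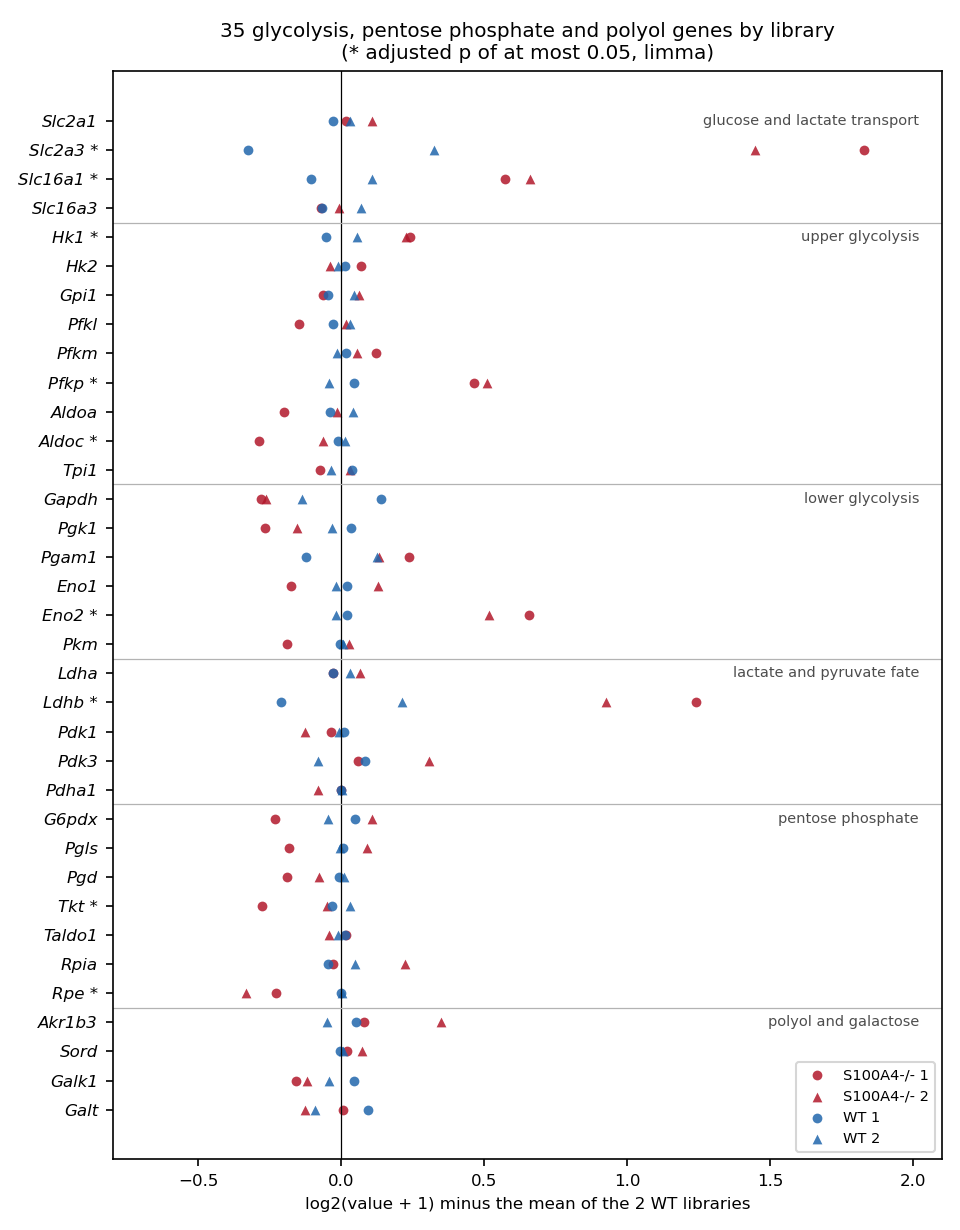
Level of each of the 35 members in each of the 4 libraries, as log2(value + 1) minus the mean of the 2 WT libraries (horizontal axis), with circles for the first and triangles for the second library of each genotype and an asterisk at members with an adjusted p of at most 0.05 in limma. Most members sit within 0.3 of the WT mean, while *Slc2a3*, *Ldhb*, *Slc16a1*, *Eno2* and *Pfkp* lie to the right in both S100A4-/- libraries. The first S100A4-/- library lies to the left for many members, among them *Aldoc*, *Tkt*, *G6pdx*, *Aldoa*, *Pgd*, *Pkm*, *Pgls* and *Eno1*.

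The calls were not equally firm. DESeq2 on the recovered reads called 4 members higher and 0 lower, against 3.86% and 0.609% of all genes, and edgeR called 6 higher and 2 lower, against 5.81% and 1.22%. *Pfkp*, *Slc16a1*, *Eno2* and *Ldhb* passed in both, with adjusted p values of 0.0011, 0.0014, 0.0059 and 0.0069 in DESeq2. The other 5 missed the threshold in DESeq2, at 0.159 for *Slc2a3*, 0.242 for *Hk1*, 0.246 for *Rpe*, 0.704 for *Aldoc* and 0.781 for *Tkt*. Without the first S100A4-/- library, *Pfkp* and *Slc16a1* were the only members called. In limma without the variance trend none of the 35 was called, with adjusted p values of 0.125 for *Pfkp*, 0.154 for *Slc16a1*, 0.118 for *Eno2* and 0.185 for *Ldhb*, the highest of the 15 alternatives for each, although 7 members had an unadjusted p under 0.05.

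The promoters of these 4 members with the firmest calls, chosen after their values were seen, are shown with that of *Ldha*, the main lactate dehydrogenase gene of these lenses, which was not called. Each is the 250 bases before a RefSeq transcript start on GRCm38.p6, read 5′ to 3′ on the strand of the gene. *Ldha* has a second such window, not printed, at chr7:46846832-46847081. Capitals mark 3 motifs looked for on both strands: ACGTG and GCGTG, the core letters bound by hypoxia-inducible factors, of which ACGTG is also part of the E-box CACGTG, and TAATCC, the core bound by the photoreceptor factor CRX. Where an E-box is present, its matches on the 2 strands overlap and are printed as 1 run.
Pfkp, chr13:6648772-6649021, minus strand: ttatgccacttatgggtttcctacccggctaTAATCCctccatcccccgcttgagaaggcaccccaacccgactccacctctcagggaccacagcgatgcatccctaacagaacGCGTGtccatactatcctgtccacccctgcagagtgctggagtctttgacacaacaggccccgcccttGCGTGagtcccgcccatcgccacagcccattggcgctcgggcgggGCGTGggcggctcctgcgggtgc
Slc16a1, chr3:104638414-104638663, plus strand: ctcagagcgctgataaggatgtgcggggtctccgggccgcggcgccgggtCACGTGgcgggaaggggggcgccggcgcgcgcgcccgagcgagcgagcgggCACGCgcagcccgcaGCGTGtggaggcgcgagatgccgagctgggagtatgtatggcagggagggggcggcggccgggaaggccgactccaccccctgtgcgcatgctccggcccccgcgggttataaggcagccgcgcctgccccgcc
Eno2, chr6:124769674-124769923, minus strand: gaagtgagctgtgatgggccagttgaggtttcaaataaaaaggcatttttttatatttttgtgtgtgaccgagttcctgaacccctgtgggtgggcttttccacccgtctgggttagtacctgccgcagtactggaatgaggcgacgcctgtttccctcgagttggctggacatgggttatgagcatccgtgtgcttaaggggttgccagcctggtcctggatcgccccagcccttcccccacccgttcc
Ldhb, chr6:142507958-142508207, minus strand: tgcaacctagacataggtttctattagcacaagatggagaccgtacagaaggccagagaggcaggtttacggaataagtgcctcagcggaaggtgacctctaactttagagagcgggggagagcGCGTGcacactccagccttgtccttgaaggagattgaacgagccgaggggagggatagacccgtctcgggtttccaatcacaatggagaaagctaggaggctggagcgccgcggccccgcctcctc
Ldha, chr7:46845554-46845803, plus strand: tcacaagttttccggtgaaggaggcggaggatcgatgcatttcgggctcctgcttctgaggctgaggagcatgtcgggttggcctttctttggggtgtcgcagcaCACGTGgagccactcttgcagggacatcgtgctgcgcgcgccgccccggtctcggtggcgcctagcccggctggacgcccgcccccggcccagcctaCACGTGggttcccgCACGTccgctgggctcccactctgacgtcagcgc

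The 5 windows differed in these letters. The printed *Ldha* window held 5 matches of ACGTG and none of the other motifs, while its second window held none of ACGTG and 1 each of GCGTG and TAATCC, and the *Slc16a1* window held 2 of ACGTG and 2 of GCGTG. The *Pfkp* window held 3 matches of GCGTG and 1 of TAATCC, *Ldhb* had 1 of GCGTG, and *Eno2* had none of the 3. The RefSeq promoter set used here gave 47 such windows for 33 of the members. No entry was found in it for *Slc2a3* and *Akr1b3*, which does not mean that RefSeq lacks these genes. ACGTG was found in 31.9% of the windows of members and in 16.6% of the 32851 windows of the set, GCGTG in 55.3% against 28.2%, and TAATCC in 8.51% against 6.25%. The set as counted left out 1 chromosome, on which no member lies, and the windows were not matched for GC content. A match of letters is a description of the window and not a binding site, and no test was run on these shares.

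Of the 4 transport genes, 2 were higher and none was lower. *Slc2a1* encodes GLUT1, the facilitative glucose carrier of most barrier tissues, and *Slc2a3* encodes GLUT3, the high-affinity carrier best known from neurons. *Slc16a1* and *Slc16a3* encode the monocarboxylate carriers MCT1 and MCT4, which move lactate with a proton across the membrane.

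*Slc16a1* (ENSMUSG00000032902, chromosome 3, 104638668 to 104658462, plus strand) stood at 495 and 526 in S100A4-/- and at 309 and 358 in WT. The groups did not overlap, and the gap between them was wider than the gap within either. Its log2 fold change was 0.62 ± 0.11 (SE, n = 2 libraries per genotype, adjusted p = 6.6e-05, limma), a mean of 510.5 ± 21.9 (SD, n = 2) against 334 ± 34.6 (SD, n = 2). *Slc16a3* stood at 1159 and 1210.1 in S100A4-/- and at 1160.05 and 1276 in WT, and these libraries overlapped. Its log2 fold change was -0.04 ± 0.07 (SE) and the adjusted p in limma was 0.845.

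*Slc2a1* was among the most abundant members, at 13285 and 14145 in S100A4-/- and 12852.5 and 13408 in WT. The second WT library lay above the first S100A4-/- library, and the log2 fold change was 0.06 ± 0.04 (SE), with a 95% interval from -0.03 to 0.15 (adjusted p = 0.507, limma). *Slc2a3* (ENSMUSG00000003153, chromosome 6, 122727809 to 122801640, minus strand) was the rarest member, at 36.0 and 27.4 in S100A4-/- and 7.31 and 12.0 in WT. These are 42 and 27 reads against 7 and 11, a 3.27-fold ratio of means with a log2 fold change of 1.64 ± 0.49 (SE, adjusted p = 0.0311, limma). Per kilobase of exonic length, the mean WT value was 1.34 for *Slc2a3* and 3745 for *Slc2a1*, so the change in *Slc2a3* was one in a carrier present at a trace of the main one.

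**Figure D2:**
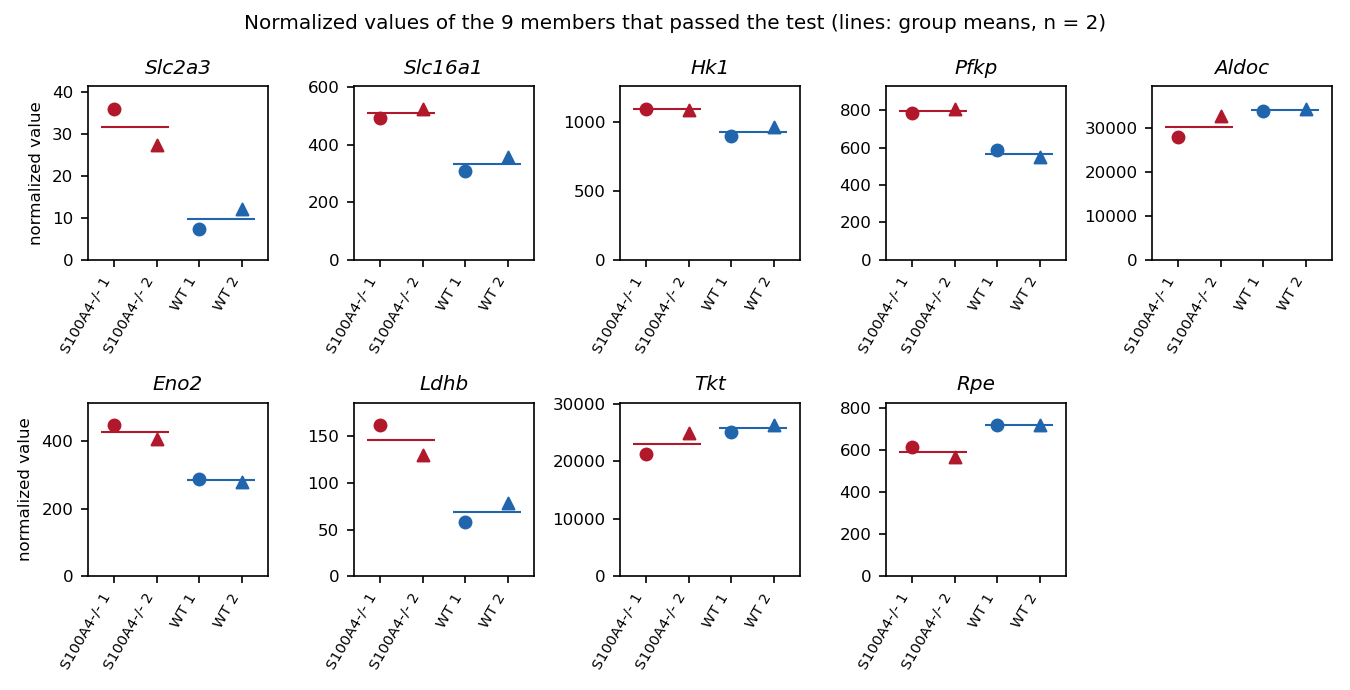
Normalized value (vertical axis, from 0) of the 9 members called by limma in each of the 4 libraries, with a line at the mean of each genotype (n = 2). The 2 S100A4-/- libraries lie above both WT libraries for *Slc2a3*, *Slc16a1*, *Hk1*, *Pfkp*, *Eno2* and *Ldhb* and below them for *Aldoc*, *Tkt* and *Rpe*, and for *Aldoc* and *Tkt* most of the difference lies in the first S100A4-/- library.

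In upper glycolysis, from hexokinase to triose phosphate isomerase, 2 of 9 members were higher and 1 was lower. *Hk1* and *Hk2* encode the hexokinases that phosphorylate glucose on entry. *Hk2* was the more abundant per kilobase and stood at 2358 and 2186 in S100A4-/- and 2269 and 2227 in WT, with a log2 fold change of 0.01 ± 0.06 (SE, adjusted p = 0.937, limma). *Hk1* (ENSMUSG00000037012, chromosome 10, 62268855 to 62379908, minus strand) stood at 1097 and 1087 in S100A4-/- and 895 and 965 in WT, so that its groups did not overlap. Its log2 fold change of 0.23 ± 0.07 (SE) was just inside the threshold (adjusted p = 0.0496, limma), and it lost its call in 11 of the 15 alternative settings.

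Phosphofructokinase, which commits sugar to glycolysis, has liver, muscle and platelet type subunits encoded by *Pfkl*, *Pfkm* and *Pfkp*. *Pfkp* (ENSMUSG00000021196, chromosome 13, 6579768 to 6648777, minus strand) stood at 785 and 809.8 in S100A4-/- and 587 and 552 in WT. Both S100A4-/- libraries were high, and the log2 fold change was 0.49 ± 0.09 (SE, adjusted p = 8.2e-05, limma), or a rise of 40.1%. *Pfkl*, the main subunit gene, stood at 4412 and 4949 in S100A4-/- and 4788 and 4991 in WT. These overlapped, and its log2 fold change was -0.07 ± 0.05 (SE, adjusted p = 0.580 in limma). *Pfkm* had a log2 fold change of 0.09 ± 0.09 (SE, adjusted p = 0.690 in limma) with both S100A4-/- libraries above both WT libraries.

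*Aldoc* and *Aldoa* encode aldolases, which split fructose bisphosphate. *Aldoc* (ENSMUSG00000017390, chromosome 11, 78322968 to 78327781, plus strand) was the most abundant member, at 27856 and 32553 in S100A4-/- and 33721 and 34308 in WT. The S100A4-/- libraries differed from each other by 0.22 on the log2 scale, more than the difference of -0.18 ± 0.05 (SE) between genotypes (adjusted p = 0.0156, limma). Without the first S100A4-/- library, the log2 fold change was -0.06. *Aldoa*, *Gpi1* (glucose phosphate isomerase) and *Tpi1* (triose phosphate isomerase) were not called, with log2 fold changes of -0.11, 0.00 and -0.02. The log2 fold change of *Aldoa* depended on single libraries too, and ran from -0.20 without the second to -0.01 without the first S100A4-/- library.

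In lower glycolysis, from glyceraldehyde phosphate to pyruvate, *Eno2* was the only member of 6 called. *Eno1* and *Eno2* encode enolases, of which *Eno2* is known as the neuronal one. *Eno2* (ENSMUSG00000004267, chromosome 6, 124760053 to 124769673, minus strand) stood at 448 and 406 in S100A4-/- and 288 and 280.3 in WT. The groups lay far apart against the gaps within them, and the log2 fold change was 0.58 ± 0.11 (SE, adjusted p = 0.0003, limma). Without the first S100A4-/- library its adjusted p was 0.0550, within a range of 7.3e-06 to 0.118 over all alternatives. *Eno1* stood at 3600.1 and 4446 in S100A4-/- and 4129 and 4015 in WT, with both WT values between the S100A4-/- values and a log2 fold change of -0.03 ± 0.06 (SE).

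*Gapdh*, *Pgk1* and *Pgam1* encode the dehydrogenase, kinase and mutase between the triose and enolase steps, and *Pkm* encodes the pyruvate kinase of most tissues. Their log2 fold changes were -0.27 ± 0.12, -0.21 ± 0.10, 0.18 ± 0.16 and -0.08 ± 0.05 (SE) and none was called. *Gapdh*, a usual reference gene, stood at 319 and 323 in S100A4-/- and 427 and 353 in WT. Both S100A4-/- values were below both WT values, but the WT libraries differed from each other by 0.28 on the log2 scale, as much as the genotypes did (adjusted p = 0.186, limma).

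Among the 5 genes of lactate and pyruvate fate, *Ldhb* was the only one called. *Ldha* and *Ldhb* encode the lactate dehydrogenase subunits, *Ldha* known from glycolytic muscle and *Ldhb* from heart and other oxidative tissue. *Ldhb* (ENSMUSG00000030246, chromosome 6, 142490249 to 142507957, minus strand) stood at 162 and 129.7 in S100A4-/- and 58.5 and 78.8 in WT. Both S100A4-/- libraries were well above both WT libraries, with means of 146 ± 22.7 and 68.7 ± 14.4 (SD, n = 2), and the log2 fold change was 1.08 ± 0.21 (SE, adjusted p = 0.0004, limma). Without the first S100A4-/- library its adjusted p was 0.102, within a range of 1.8e-06 to 0.185 over all alternatives. *Ldha* stood at 5356 and 5724 in S100A4-/- and 5359 and 5579.6 in WT. Its libraries overlapped, and its log2 fold change was 0.02 ± 0.05 (SE), with an interval from -0.08 to 0.12.

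*Pdk1* and *Pdk3* encode kinases that switch off pyruvate dehydrogenase, and *Pdha1* encodes the subunit they phosphorylate. *Pdk1*, the more abundant of these 2 kinase genes, stood at 1815 and 1706 in S100A4-/- and 1873 and 1853 in WT, and was not called (log2 fold change -0.08 ± 0.06, SE, adjusted p = 0.541, limma). *Pdk3* and *Pdha1* had log2 fold changes of 0.18 ± 0.12 and -0.04 ± 0.07 (SE) and overlapping libraries.

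In the pentose phosphate pathway none of 7 members was higher and 2 were lower. *Tkt* encodes transketolase, which returns pentoses to glycolysis, and *Rpe* encodes ribulose phosphate epimerase. *Tkt* (ENSMUSG00000021957, chromosome 14, 30548359 to 30574720, plus strand) stood at 21202.5 and 24834 in S100A4-/- and 25134 and 26252 in WT. Here too the first S100A4-/- library was the low one, and the log2 fold change of -0.16 ± 0.05 (SE, adjusted p = 0.0338, limma) was -0.05 without it. *Rpe* (ENSMUSG00000026005, chromosome 1, 66700831 to 66719805, plus strand) stood at 615 and 571 in S100A4-/- and 719 and 720.4 in WT. Both S100A4-/- libraries were low for *Rpe*, with a log2 fold change of -0.28 ± 0.09 (SE, adjusted p = 0.0393, limma) that lay between -0.33 and -0.23 when any 1 library was left out, although none of these 4 fits called it. *G6pdx*, the entry enzyme and source of NADPH, had a log2 fold change of -0.06 ± 0.08 (SE), and *Pgls*, *Pgd*, *Taldo1* and *Rpia* lay between -0.13 and 0.10, none of them called.

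None of the 4 polyol and galactose genes was called. *Akr1b3*, which encodes aldose reductase, stood highest in the second S100A4-/- library and had a log2 fold change of 0.21 ± 0.12 (SE, adjusted p = 0.364, limma). *Sord*, which encodes sorbitol dehydrogenase, was the most abundant of the 4 per kilobase and had a log2 fold change of 0.05 ± 0.05 (SE), with an interval from -0.06 to 0.15. *Galk1* and *Galt*, which encode the first enzymes of galactose use, had log2 fold changes of -0.14 ± 0.08 and -0.06 ± 0.14 (SE).

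The higher calls were all in the less abundant isozymes. Of the 35 members, 17 belong to 8 families of carriers or isozymes with more than 1 member listed, and each of the 6 members called higher was one of the less abundant genes of its family per kilobase of exonic length. The share of *Slc16a1* in the summed *Slc16a1* and *Slc16a3* value was 33.9% and 34.3% in S100A4-/- and 24.2% and 25.2% in WT. *Ldhb* made up 5.99% and 4.56% of lactate dehydrogenase in S100A4-/- and 2.25% and 2.89% in WT. *Eno2* made up 12.5% and 9.46% of the *Eno1* and *Eno2* sum in S100A4-/- and 7.39% in both WT libraries. Counted by unique windows, described below, these shares of *Eno2* were 2.44% and 1.80% against 1.38% in both WT libraries. In each of these families the S100A4-/- libraries were both above the WT libraries.

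*Pfkp* made up a mean of 4.53% of phosphofructokinase in WT and 6.38% in S100A4-/-, *Hk1* 22.4% and 25.2% of hexokinase, and *Slc2a3* 0.035% and 0.112% of the 2 glucose carriers. The size of such a share depends on the length used, and for *Pfkp* it was 9.49% in WT and 13.2% in S100A4-/- with values not divided by length and 8.37% and 11.7% by unique windows. For *Aldoa* and *Pdk3*, which were not called, the mean shares were 33.3% in WT and 34.3% in S100A4-/- and 31.4% and 35.5%. In all 8 families, as listed, the share of the leading listed gene (*Slc2a1*, *Slc16a3*, *Hk2*, *Pfkl*, *Aldoc*, *Eno1*, *Ldha* or *Pdk1*) was lower in both S100A4-/- libraries than in both WT libraries. For *Eno1* this order turned when *Eno3*, which is not among the 35 genes, was counted in the family. With *Pdk2* and *Pdk4*, also outside the 35 genes, counted among the pyruvate dehydrogenase kinases, *Pdk2* led per kilobase of exonic length, at 61.1% and 63.4% in S100A4-/- and 59.1% and 61.5% in WT, which overlapped. Not divided by length, *Pdk1* led in WT, at 48.5% against 44.0% for *Pdk2*, and per kilobase of coding length at 46.9% against 45.4%, and under both of these the share of *Pdk2* was higher in both S100A4-/- libraries. With 2 libraries against 2, an exact two-sided permutation test cannot go below p = 0.333, so no test was made on shares. Shares within a family are not independent of each other, and in the 8 families as listed the order of the genotypes was the same with values not divided by length and per kilobase of the longest transcript or of coding length.

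**Figure D3:**
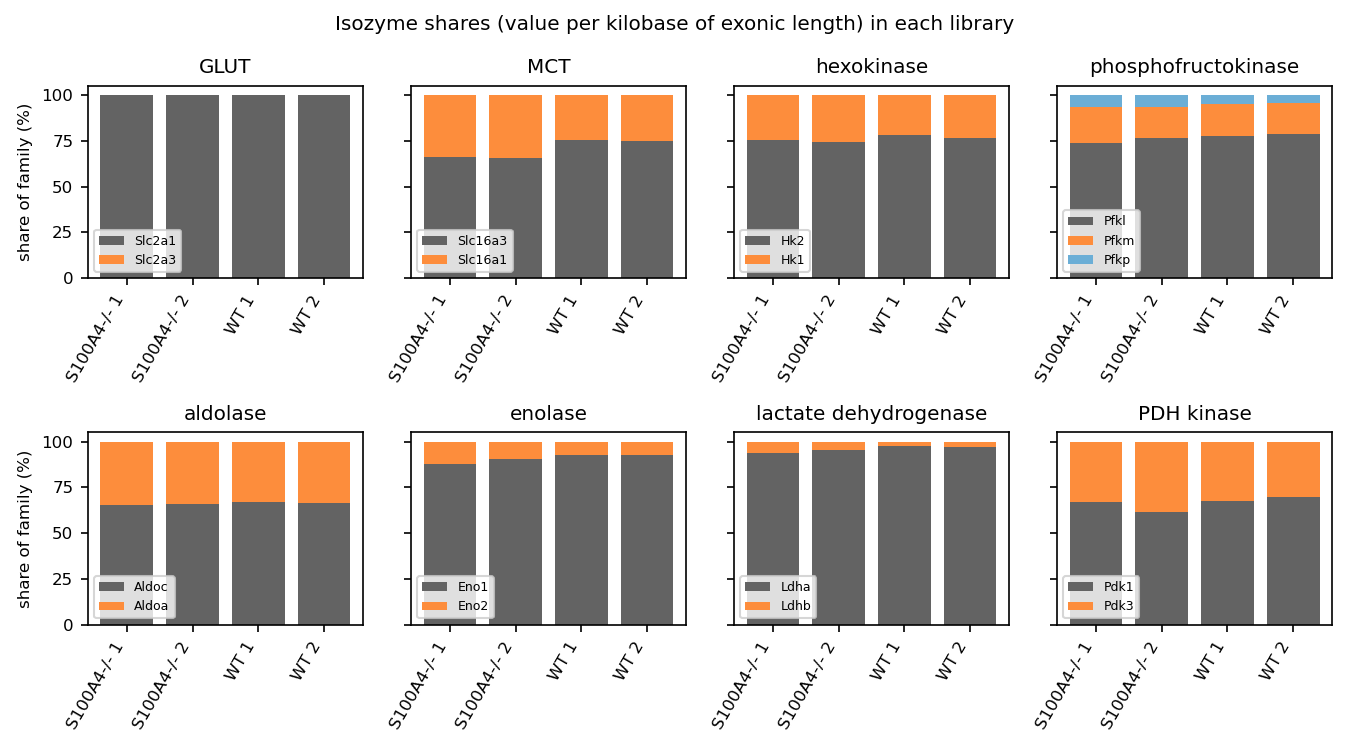
Share of each isozyme gene in the summed value per kilobase of exonic length of its family (vertical axis, percent, from 0 to 100) in each of the 4 libraries, for 8 families. The bottom bar is the leading listed gene in WT, and it is shorter in both S100A4-/- libraries in each panel, most visibly for the MCT carriers, where *Slc16a1* has a mean share of 24.7% in WT and 34.1% in S100A4-/-, and too little to see for GLUT, where *Slc2a3* has 0.035% and 0.112%.

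The level of the called members varied widely. Those called higher had mean WT values from 9.68 (*Slc2a3*) to 929.7 (*Hk1*), while of those called lower *Aldoc* had 34014, *Tkt* 25693 and *Rpe* 719.9. Summed over all 35 members, the values came to 141571 and 158957 in S100A4-/- and 156750.0 and 160048 in WT, or 0.203% and 0.212% of all reads against 0.214% and 0.215%. The first S100A4-/- library was the lowest of the 4.

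**Figure D4:**
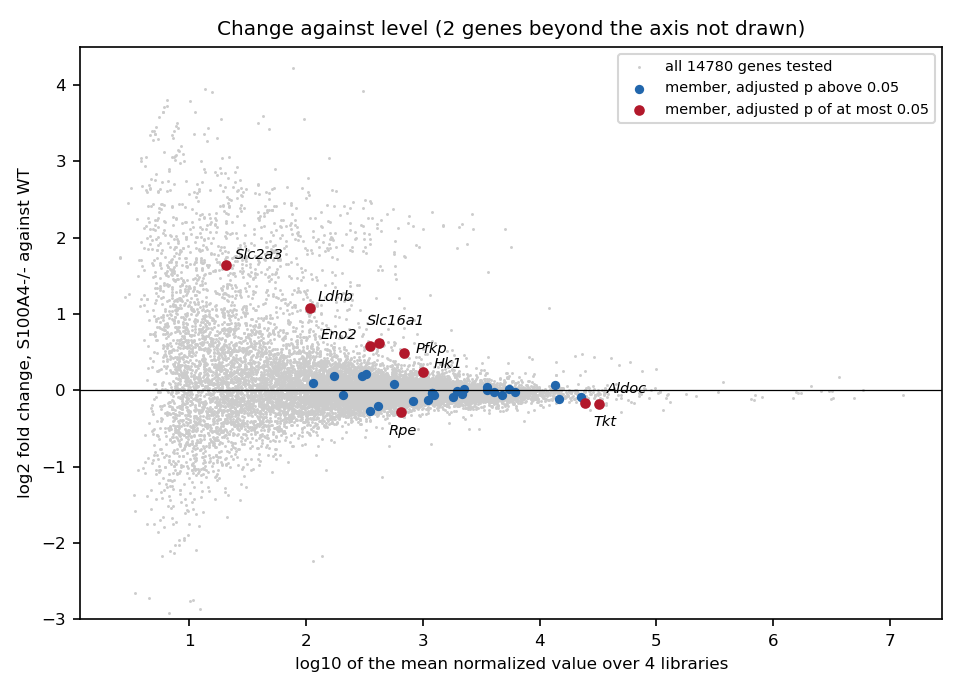
Log2 fold change of S100A4-/- against WT (vertical axis) over the log10 of the mean normalized value of the 4 libraries (horizontal axis) for the 14780 genes tested (grey) and the 35 members (blue, or red where the adjusted p in limma was at most 0.05). The red points to the left of *Hk1* lie above 0, apart from *Rpe* at -0.28, and the 2 most abundant called members, *Aldoc* and *Tkt*, lie just below 0.

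Genes of the retina moved with genotype in the same libraries. All 13 rod photoreceptor markers were higher in S100A4-/-, with a summed value of 11302 and 11146 against 2770.1 and 2849, *Gnat1* the most abundant of them and none at 0. All 7 neuron markers were higher, with a sum of 1819.8 and 1618 against 514 and 478, *Slc17a7* the most abundant and *Gad2* at 0 in the first WT library. The 7 Mueller glia markers, 4 of them higher, summed to 85330 and 87044 against 80519 and 80913, nearly all of it *Dkk3*. Of the other lists, 6 of 7 markers of pigment cells and ciliary body (sums of 1689.6 and 1708 against 421 and 555, *Dct* the most abundant in S100A4-/- and *Ttr* in WT), 4 of 6 of cones (206 and 212 against 81.4 and 67.9, *Arr3* the most abundant over the 4 libraries together), 3 of 4 of macrophages (228 and 191 against 79.4 and 65.7, *Csf1r* the most abundant) and 1 of 5 of blood vessels (182 and 198 against 97.1 and 137) were higher, and *Alas2*, the red blood cell marker analysed, was not called. The blood vessel marker called was *Kdr*, at 74.5 and 60.8 against 9.40 and 9.85, while *Tek*, the most abundant of that list in WT, was not called. *Cdh2*, which was lower, was the only one called of 6 markers of the lens epithelium. Whether the values of *Slc2a3*, *Eno2*, *Ldhb*, *Hk1*, *Pfkp* and *Slc16a1* come from cells of these types or from lens cells was not tested. In RNA of whole lenses, a change in the number of cells of a type and a change in RNA per cell cannot be told apart.

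Several members share much of their sequence with other genes, which matters because reads were counted only where they mapped to a single place in the genome. For each member, the 50-base windows of the main transcript were looked up in the transcripts of all other annotated genes. *Akr1b3* shared 86.2% of its windows, *Gapdh* 82.5% with 213 pseudogenes among the genes that shared them, *Eno1* 72.2% and *Pgk1* 68.0%. *Pgam1*, *Sord*, *Pkm* and *Ldhb* shared between 27.0% and 41.5%, and 17 members shared none. *Gapdh* had 94.3 per kilobase in WT against 2248 for *Tpi1*, the enzyme gene of the step before, but with so few unique windows these 2 levels cannot be set side by side. The same share of windows applies to both genotypes, and of the called members *Ldhb* had 27.0% shared, *Eno2* 0.25% and the others none. With values divided by unique windows only, *Aldoc* and *Aldoa* had nearly equal shares in WT, at 50.8% and 49.2%, and in the 8 families as listed the direction of each share between genotypes stayed.

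**Figure D5:**
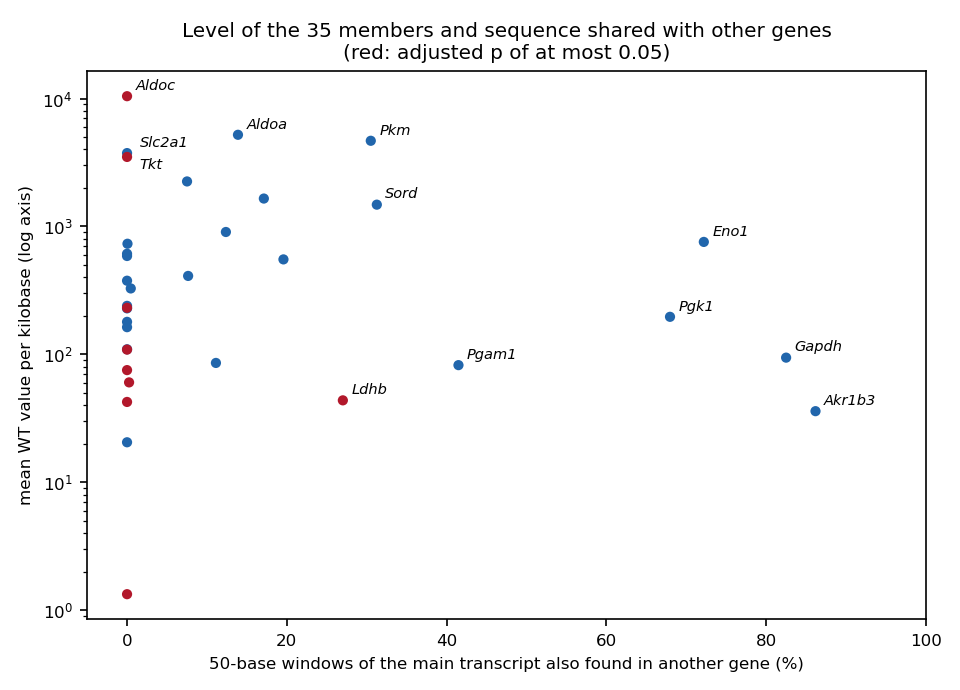
Mean WT value per kilobase of exonic length (vertical axis, log scale) over the percentage of 50-base windows of the main transcript that are also found in another annotated gene (horizontal axis), for the 35 members, with members called by limma in red. *Akr1b3*, *Gapdh*, *Eno1* and *Pgk1* sit at the right with between 68.0% and 86.2% of windows shared, and 8 of the 9 called members sit at or next to 0, *Ldhb* being the exception at 27.0%.

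The other genes of these pathways were mostly quiet. Of 64 further genes listed by function, 49 were in the table and all 49 were tested. Among them 1 was higher and 2 were lower, or 6.12%, close to the 6.96% of all genes. *Pfkfb2*, which makes the fructose bisphosphate isomer that activates phosphofructokinase, stood at 408 and 351 in S100A4-/- and 251 and 264 in WT. Its groups did not overlap and its log2 fold change was 0.55 ± 0.12 (SE, adjusted p = 0.0014, limma), and it was not called without the first S100A4-/- library.

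The 2 lower genes were muscle type isozymes. *Pgam2*, the muscle phosphoglycerate mutase gene, stood at 23930.0 and 25647 in S100A4-/- and 29513 and 29620.3 in WT, a log2 fold change of -0.26 ± 0.04 (SE, adjusted p = 2.9e-05, limma). *Eno3*, the muscle enolase gene, stood at 5440.4 and 6196 in S100A4-/- and 6651 and 6797 in WT, a log2 fold change of -0.21 ± 0.05 (SE, adjusted p = 0.0056, limma) that was -0.12 without the first S100A4-/- library and was called in 2 of the 4 fits with a library left out. Both S100A4-/- libraries lay below both WT libraries for each gene. Both genes were more abundant per kilobase than the members of the same step, since *Pgam2* made up 99.8% of the *Pgam1* and *Pgam2* sum in WT and *Eno3* 82.5% of the 3 enolase genes. By unique windows, *Eno3* made up 38.8% and *Eno1* 60.3% of the 3 enolase genes in WT, so which of them leads depended on how length was counted. With *Eno3* counted in, the share of *Eno1* was higher in S100A4-/- (17.2% and 18.5%) than in WT (16.5% and 15.8%), the opposite of its order beside *Eno2* alone, and *Eno3* was the gene with the lower share.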

How the data were processed

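RNA of S100A4-/- lenses (2 libraries) and WT littermate lenses (2 libraries) was sequenced as stranded mRNA libraries with single-end reads of 50 bases. Groups came from the sample labels. Trim Galore was used by the authors for trimming, STAR for mapping to GRCm38 (mm10), HTSeq for counting reads that had 1 genomic locus, and DESeq2 for normalization, after genes under 10 reads in all libraries had been left out. The deposited signal values are reads per gene over the size factor of the library, with no correction for gene length. Versions of these tools are not given in the sources used here. No column of values was left without a sample (0 columns). The study calls the pools of a genotype biological replicates. P-values rest on the spread between pools and not between single animals. In limma with the trend, the spread used for a gene was drawn largely from other genes of like level, and only in part from its own pools.

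In each library 100.0% of the deposited values came out as whole reads, within 0.02 reads, when divided by what 1 read was worth, and these reads were used where counts were needed. Genotypes were compared with limma (lmFit and eBayes with a variance trend) on log2(value + 1), for genes that reached a value of 10 in any library, with Benjamini-Hochberg adjustment over all 14780 of them. A fold change is on this scale and understates the change of low genes. The call rule was an adjusted p of at most 0.05, and the 2-fold threshold of the study was applied besides. On the recovered reads, DESeq2 called 571 genes higher and 90 lower and edgeR's quasi-likelihood test 859 and 181, against 831 and 197 in limma. The other alternatives were pseudocounts of 0.5 and 5, no filter, TMM factors, a minimum of 50 for the mean value, equal totals, quantile normalization, no variance trend, the replicate number as a block, and each library left out in turn. When a library was left out, the lone library of that genotype was assumed to vary like the other genotype. Unique windows and the families with *Eno3*, *Pgam2* and *Pdk2* were added after the data were seen.

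Lengths, windows and coordinates are from GENCODE M21 on GRCm38 and promoters from RefSeq on GRCm38.p6. The members and lists were chosen with earlier results of these data known. Values in every library are given for each member called, for the most abundant member of each family and for other pathway genes called, with *S100a4* and *S100a5* as checks. *Gapdh*, whose library values are also given, was chosen after its values were seen. Each test was checked on simulated counts with known log2 changes from 0.5 to 2. At 0.5, limma and edgeR called 35 and DESeq2 28 of 50 changed genes. Smaller changes, such as those of *Hk1*, *Rpe*, *Aldoc* and *Tkt*, were not simulated. Models were fitted in R 4.3.3 with DESeq2 1.42.0, limma 3.58.1 and edgeR 4.0.16. Tables and plots were made in Python 3.11.15 with matplotlib 3.10.9, pandas 2.3.3 and numpy 2.4.6.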

Additional observations from a re-analysis of the deposited data

How the results depend on the processing

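No called member changed direction under any of the 15 alternatives. *Pfkp* and *Slc16a1* kept their calls in 14, *Eno2* and *Ldhb* in 13, *Slc2a3* in 8 of the 14 that tested it, *Aldoc* in 8, *Rpe* and *Tkt* in 7 and *Hk1* in 4. Against 6 members higher and 3 lower, limma without the variance trend called 0 and 0 (7 members had an unadjusted p under 0.05), and equal totals, quantile normalization and DESeq2 called 0 lower, beside 5, 4 and 4 higher. Members past 2-fold came to 1 with a mean value of at least 50 (*Slc2a3* was not tested there), 1 in DESeq2, and 0 with quantile normalization and without the trend, against 2. Leaving out 1 library gave 2 to 5 members higher, 0 to 4 lower and 0 to 2 past 2-fold. The fewest higher calls were without the first S100A4-/- library (2 higher, 0 lower), and lower calls also came to 1 without the first and 0 without the second WT library. No member passed 2-fold without the first S100A4-/- or the first WT library, and 1 did without the second S100A4-/- library.

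Other pathway genes called higher came to 0 without the trend, against 1, and those lower to 1 with equal totals and 0 without the trend, against 2. With 1 library left out these were 0 to 2 higher and 1 to 2 lower. Over all genes, against 831 higher and 197 lower, the counts were 549 higher with a mean value of at least 50, 179 and 8 without the trend, 55 lower with equal totals, 348 lower with the replicate block and 90 lower in DESeq2. They were 404 to 795 higher and 87 to 161 lower with a library left out, lowest in both directions without the first S100A4-/- library. The cause of these differences was not tested.

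With the replicate number as a block, 1330 genes were called against 1028, and the call of 0 members differed. Of the other pathway genes 3 were lower with the block against 2, the added one being *Pfkfb3*. Deviations of libraries with the same number had a correlation of 0.012, so the numbers were not taken as pairs.

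Uncalled members with changes near 0 switched sign. *Gpi1* became 0.0019 with TMM factors, 0.028 with equal totals, 0.029 with quantile normalization and 0.0028 in edgeR. With equal totals and with quantile normalization *Tpi1* became 0.0054 and 0.013 and *Eno1* 0.0039 and 0.015. *Taldo1* became 0.015 with equal totals and *Rpia* -0.038 with quantile normalization. With a library left out, log2 fold changes ran from -0.11 to 0.030 for *Slc16a3*, -0.040 to 0.069 for *Hk2*, -0.065 to 0.063 for *Gpi1*, -0.15 to 0.018 for *Pfkl*, -0.076 to 0.029 for *Tpi1*, -0.18 to 0.13 for *Eno1*, -0.19 to 0.025 for *Pkm*, -0.030 to 0.066 for *Ldha*, -0.23 to 0.11 for *G6pdx*, -0.18 to 0.089 for *Pgls*, -0.043 to 0.015 for *Taldo1*, -0.029 to 0.22 for *Rpia* and -0.15 to 0.033 for *Galt*.

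Depth limits the rarest member, *Slc2a3*, most, with 7 and 11 reads in WT. The 3 reads taken as the lowest count that shows a gene were worth 2.57 to 3.28 in value, and counting error is all that such floors cover.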

Other observations

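*Bsg*, which encodes basigin, the chaperone that carries monocarboxylate transporters to the membrane, stood at 16615 and 16671 in S100A4-/- and 17035 and 16733 in WT. *Pfkfb3* stood at 2589.6 and 2617 in S100A4-/- and 2786 and 3031 in WT, with all S100A4-/- values below all WT values, a log2 fold change of -0.16 ± 0.06 (SE) and an adjusted p of 0.0950 in limma. It was called with the replicate number as a block, at an adjusted p of 0.0343, within a range of 0.0343 to 0.629 over all alternatives. It belongs to the same enzyme family as *Pfkfb2*, which was higher in S100A4-/-, and the difference between the changes of the 2 genes was not tested. *Bsg* and *Pfkfb3* were chosen after their values were seen.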
